A study of Mus musculus with 63 samples.

Results

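The miR-106b~25 cluster is 3 hairpins in a single intron, and 4 mature miRNAs of it were followed here across 4 sorted kidney cell types and 4 conditions. The members were the rows of the count table named mmu-miR-106b-5p, mmu-miR-106b-3p, mmu-miR-93-5p and mmu-miR-25-3p, which makes 4 of the 2110 mature miRNA loci in the table. All 4 passed the filter on low counts in every cell type. Small RNA was sequenced from 63 libraries of 16 male C57BL/6 mice that were 8 to 12 weeks old. Mice were sham operated, or had unilateral ureteric obstruction for 2 days (UUO-2) or 7 days (UUO-7), or had 7 days of obstruction that was then reversed by reimplanting the ureter and followed by 2 weeks of recovery (R-UUO). From each mouse the digested kidney cortex was sorted by surface label. CD45+F4/80hi events were taken as macrophages (Macs) and CD45-CD31+ events as endothelial cells (ECs). Among CD45-CD31- events, those binding the lectin LTL were taken as proximal tubular (PT) cells and those positive for PDGFR-β as stromal cells (PDGFR-β+ cells). Each group held 4 libraries, one per mouse, except PDGFR-β+ cells at UUO-7 with 3, because the authors removed 1 library as an outlier. Every library is a bulk sample of sorted cells, so fewer cells of a type and less RNA per cell cannot be told apart.

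The cluster lies within Mcm7, which encodes a subunit of the helicase that opens DNA for replication, and E2F transcription factors that drive the G1 to S transition are known to raise both the host gene and its miRNAs. It is a paralog of the miR-17~92 cluster. miR-106b-5p and miR-93-5p carry the same seed as miR-17-5p and are known to repress the cell cycle inhibitor Cdkn1a, while miR-25-3p carries the seed of miR-92a-3p and is known to repress the apoptosis inducer Bcl2l11. miR-106b-3p is the opposite arm of the miR-106b hairpin and shares no seed with the rest.

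The mature sequences show which members could act on the same targets. They are RefSeq sequences for GRCm38.p6, written 5′ to 3′ with the seed (bases 2 to 8) in capitals.
miR-106b-5p: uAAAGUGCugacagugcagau
miR-93-5p: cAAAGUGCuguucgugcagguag
miR-17-5p: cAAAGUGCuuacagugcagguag
miR-20a-5p: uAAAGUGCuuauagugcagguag
miR-25-3p: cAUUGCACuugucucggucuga
miR-92a-3p: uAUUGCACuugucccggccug
miR-106b-3p: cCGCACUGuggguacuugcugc
miR-106b-5p and miR-93-5p had 5 mismatches over 21 aligned bases from the 5′ end, all outside the seed, and miR-106b-5p had only 3 with miR-17-5p and 3 with miR-20a-5p. miR-25-3p had 3 mismatches over 21 bases with miR-92a-3p, again outside the seed. The seed of miR-106b-5p and miR-93-5p occurred in 7 mature names of the RefSeq table, that of miR-25-3p in 6, and that of miR-106b-3p in 1.

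All members are transcribed from the minus strand of chromosome 5, in the order miR-106b, miR-93, miR-25. miR-106b-5p was counted at chr5:138165787-138165807 and miR-106b-3p at chr5:138165746-138165767. miR-93-5p was counted at chr5:138165574-138165596 and miR-25-3p at chr5:138165332-138165353. The 3 hairpins are 82, 88 and 84 bases long, with 126 bases between the first pair and 118 between the second. All lie in intron 13 (chr5:138165162-138165909, 748 bases) of the 15-exon protein-coding transcript Mcm7-201 in the GENCODE annotation of GRCm38, and the miR-93 and miR-25 hairpins also fall in an exon of the retained-intron transcript Mcm7-202. The other arms of the last 2 hairpins were miR-93-3p and miR-25-5p. The table names no Mcm7 transcript, so host gene expression was not analysed here.

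The libraries held 616565 to 10819385 counts, with the lowest totals in PT cells (616565 to 5093294) and the highest in ECs (2792366 to 10819385). The 4 members together took 0.350% to 1.03% of a Mac library's counts and 0.0682% to 0.235% of any other library's. The least counted member was miR-106b-5p, with 11 to 1143 counts per library, against 490 to 29680 for miR-25-3p, so its changes are the least precise. Each sorted population carried its defining miRNAs. The EC markers miR-126a-3p and miR-126a-5p summed to 93093 to 173183 CPM in ECs and at most 3523 elsewhere, and 3 leukocyte miRNAs (miR-142a-3p, miR-142a-5p, miR-223-3p) to 14702 to 41963 CPM in Macs and at most 698 elsewhere. PT markers (miR-192-5p, miR-194-5p, miR-215-5p) reached 16092 to 130294 CPM in PT cells and at most 5216 elsewhere, and 5 stromal markers 92507 to 400878 CPM in PDGFR-β+ cells and at most 46033 elsewhere. In PT cells in R-UUO the stromal sums reached 25837 CPM, and the PT sums were as low as 16092 CPM. These marker sums use the scaling over all libraries. For cell types that no gate selects, 4 erythroid miRNAs summed to 280 to 571 CPM in Macs and 40.7 to 166 CPM elsewhere. The 5 miRNAs of other epithelium summed to 406 to 11187 CPM, with the highest sums in PT cells. The lymphocyte miRNA miR-150-5p was highest in ECs (1057 to 3651 CPM).

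Macs had the highest level of every member. Levels between cell types are given as CPM, the count scaled to library depth with TMM factors over all 63 libraries, given as mean ± SD over 16 libraries (15 for PDGFR-β+ cells). miR-25-3p was the most abundant, at 2473 ± 610 CPM in Macs, 1733 ± 234 in ECs, 990 ± 210 in PDGFR-β+ cells and 886 ± 235 in PT cells. miR-93-5p followed a different order, with 1468 ± 263 CPM in Macs, 656 ± 161 in PT cells, 429 ± 86.0 in PDGFR-β+ cells and 388 ± 90.0 in ECs. ECs were thus second for one member and last for the other.

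The miR-106b hairpin gave far fewer reads from either arm. miR-106b-3p stood at 151 ± 44.6 CPM in Macs, 45.0 ± 8.42 in ECs, 43.96 ± 10.3 in PDGFR-β+ cells and 35.2 ± 9.30 in PT cells. miR-106b-5p stood at 71.5 ± 26.2 CPM in Macs, 27.9 ± 9.87 in PDGFR-β+ cells, 24.7 ± 7.21 in ECs and 19.5 ± 6.83 in PT cells. The arm named 3p was therefore the more abundant arm of this hairpin in all 4 populations. Among the 671 loci past the filter, miR-25-3p ranked between 33 (Macs) and 67 (PDGFR-β+ cells), miR-93-5p between 46 (Macs) and 95 (PDGFR-β+ cells), miR-106b-3p between 125 (Macs) and 194 (PDGFR-β+ cells) and miR-106b-5p between 159 (Macs) and 238 (PT cells). How efficiently each sequence enters a library was not measured, which bears on levels of different miRNAs but not on the same miRNA across cell types.

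**Figure D1:**
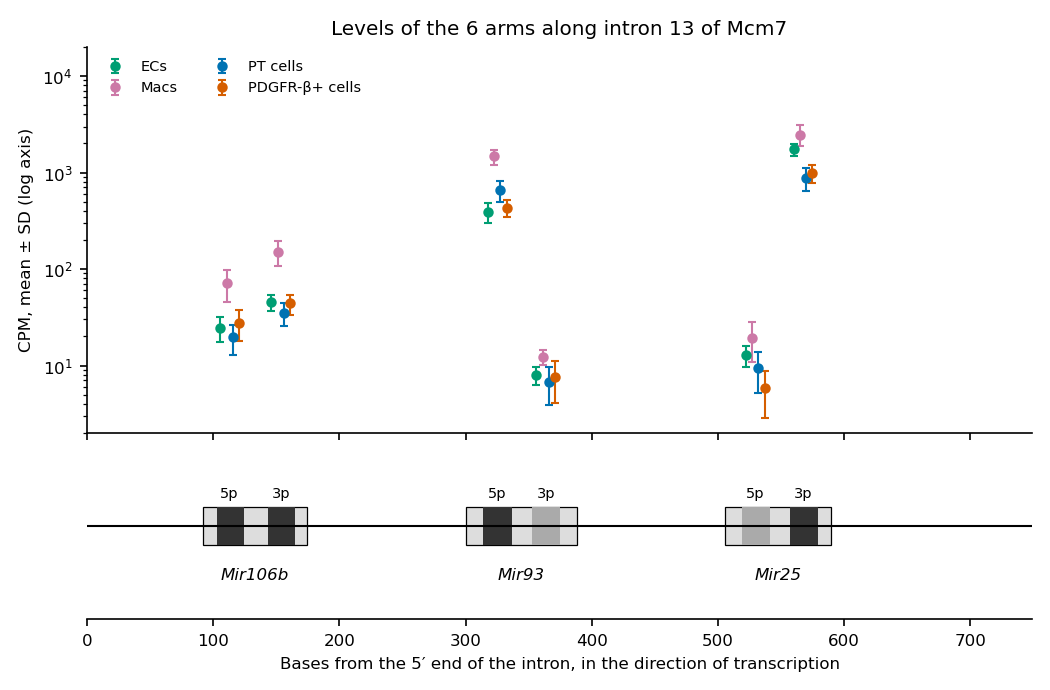
Levels of the 6 arms along the Mcm7 intron. The upper panel gives mean ± SD CPM of each arm per cell type on a log axis, at its place in the intron in bases from the intron's 5′ end, and the lower panel draws the 3 hairpins to scale. miR-25-3p and miR-93-5p stand highest, the miR-106b arms lie lower, and Macs have the highest mean at every arm.

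In 15 mice with all 4 cell types, Macs had the highest miR-106b-3p and miR-93-5p in 15 and the highest miR-106b-5p and miR-25-3p in 14. PT cells were lowest in 10 of 15 mice for miR-106b-5p, in 11 for miR-106b-3p and in 11 for miR-25-3p, while ECs were lowest in 11 for miR-93-5p. The 6 pairs of cell types were compared in one edgeR quasi-likelihood fit of the 63 libraries, averaging the 4 conditions. A locus was called at an adjusted p under 0.05 (Benjamini-Hochberg over all loci tested) and a fold change over 1.5, and log2 differences are given with their standard error. Cell types differ at many loci, so the share of all loci called is given with each count.

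Against PT cells, all 4 members were higher in Macs, where 62.3% of loci were called in either direction. miR-106b-3p differed by 2.09 on the log2 scale (SE 0.103, 4.27-fold, edgeR's adjusted p = 6.25e-26), and miR-106b-5p by 1.81 (SE 0.173, 3.51-fold). miR-25-3p was 2.80-fold and miR-93-5p 2.26-fold higher. All 4 were also higher in Macs than in PDGFR-β+ cells, with 68.7% of loci called, led by miR-93-5p at 1.77 (SE 0.0845, 3.41-fold, edgeR's adjusted p = 1.54e-26) and miR-106b-3p at 1.74 (SE 0.102, 3.35-fold). Both miR-106b-5p (1.31, SE 0.169) and miR-25-3p (1.30, SE 0.0916) followed.

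Between ECs and Macs, 3 members were called, all lower in ECs, with 64.7% of loci called. miR-93-5p was 3.83-fold lower (log2 -1.94, SE 0.0824, edgeR's adjusted p = 6.59e-29), miR-106b-3p 3.27-fold lower (-1.71, SE 0.0987) and miR-106b-5p 2.78-fold lower (-1.47, SE 0.165). miR-25-3p differed by only -0.49 (SE 0.0878, edgeR's adjusted p = 1.85e-06), under the fold threshold. It passed that threshold in sham libraries alone (-0.59), and when R-UUO mouse 5 (-0.73), UUO-7 mouse 2 (-0.65) or UUO-7 mouse 3 (-0.68) was left out, and under library size alone (-1.80).

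Between ECs and PT cells, 2 members were called and they pointed in opposite directions, with 68.6% of loci called. miR-25-3p was 2.00-fold higher in ECs (log2 1.00, SE 0.0887, edgeR's adjusted p = 4.75e-15), and miR-93-5p was 1.69-fold lower (-0.76, SE 0.0803, edgeR's adjusted p = 1.79e-12). The miR-93-5p call was lost without UUO-7 mouse 4 (-0.57). Against PDGFR-β+ cells, ECs had 1.76-fold more miR-25-3p (0.82, SE 0.0905, edgeR's adjusted p = 1.67e-11) and no other member was called, with 40.2% of loci called. Between PT and PDGFR-β+ cells only miR-93-5p was called, 1.51-fold higher in PT cells (0.60, SE 0.0821, edgeR's adjusted p = 5.27e-09), where 63.2% of loci were called, and this call was lost without R-UUO mouse 1 (0.52) or UUO-7 mouse 4 (0.44).

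Scaling by library size alone moved the median difference of all loci from -0.03 to -1.30 for ECs against Macs, from -0.05 to -0.82 for ECs against PT cells and from -0.06 to 0.90 for Macs against PDGFR-β+ cells. Relative to that median, the excess of miR-25-3p in ECs over PT cells was 1.05 and stayed between 0.99 and 1.23 under every alternative. The excess of Macs over PT cells, relative to the median, was 2.01 for miR-106b-3p and 1.09 for miR-93-5p. The deficit of miR-93-5p in ECs against PT cells, relative to the median, was -0.71 (range -0.85 to -0.53). Before subtracting the median, library size alone took miR-25-3p in ECs against PT cells to 0.19 and against PDGFR-β+ cells to 0.56, and neither was then called.

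**Figure D2:**
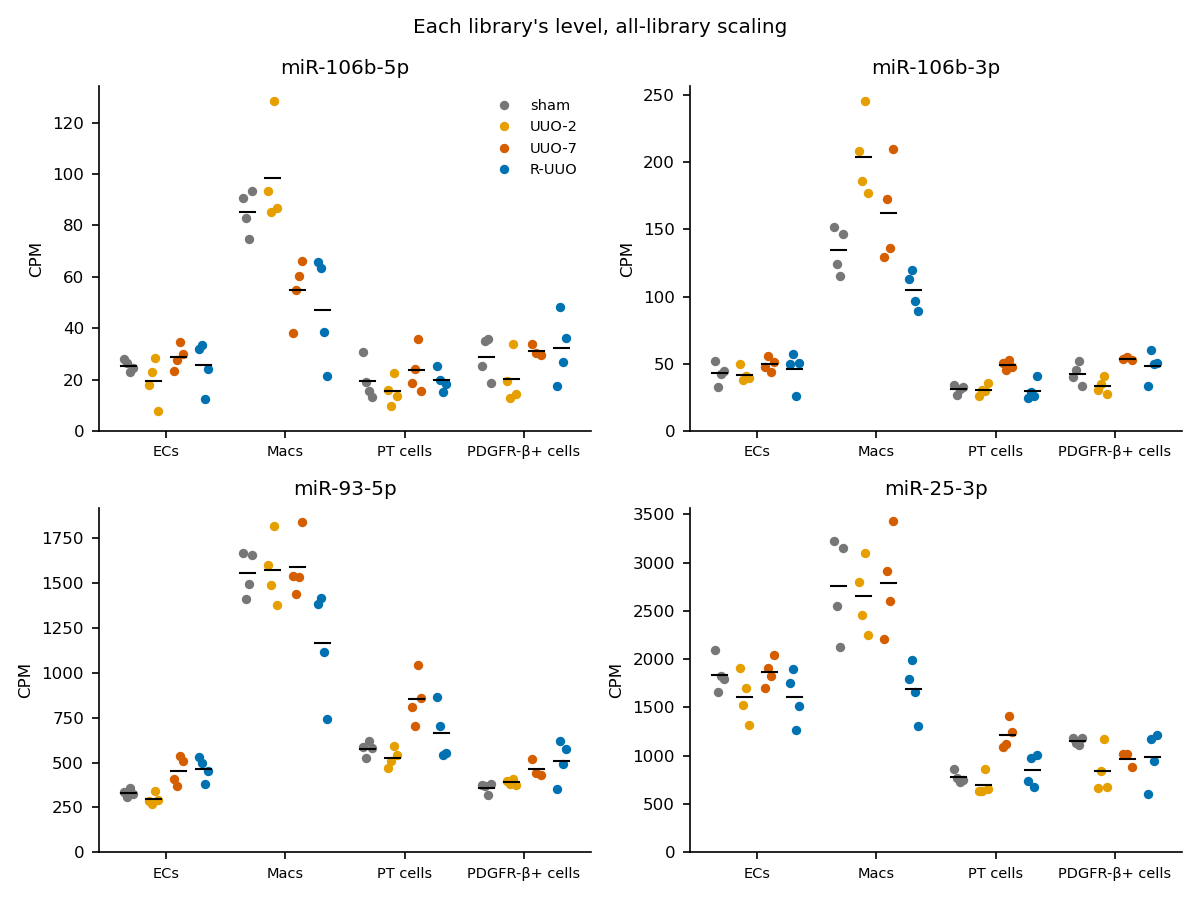
Level of each member in every library. Each panel is 1 member, each point 1 library in CPM scaled over all 63 libraries, coloured by condition and grouped by cell type, and bars mark group means. Macs have the highest mean of each member, and ECs lie above PT cells on average for miR-25-3p (1733 against 886 CPM) but below them for miR-93-5p (388 against 656 CPM).

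Because the members derive from a common transcript, their ratio within a library was examined next, which does not depend on how libraries are scaled. The log2 ratio of miR-93-5p to miR-25-3p was -2.18 ± 0.337 in ECs, -1.20 ± 0.359 in PDGFR-β+ cells, -0.73 ± 0.187 in Macs and -0.43 ± 0.238 in PT cells (SD over libraries). Stated as counts, miR-25-3p exceeded miR-93-5p 4.54-fold in ECs but 1.34-fold in PT cells. All 6 pairs of cell types differed in this ratio by the exact two-sided sign-flip permutation test over mice, adjusted over 18 tests of 3 ratios. ECs lay below PT cells in 16 of 16 mice (difference -1.76 ± 0.377, exact adjusted p = 0.000183), below Macs in 16 of 16 (-1.45 ± 0.290) and below PDGFR-β+ cells in 15 of 15 (-0.97 ± 0.364), with ± the SD over mice. Macs lay below PT cells in 15 of 16 mice (-0.31 ± 0.176, exact adjusted p = 0.000235) and above PDGFR-β+ cells in 14 of 15 (0.48 ± 0.329, exact adjusted p = 0.000275). PT cells lay above PDGFR-β+ cells in 15 of 15 mice (0.79 ± 0.380).

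For the arms of the miR-106b hairpin the cell type means lay closer together, while libraries of 1 cell type were spread more widely in ECs, Macs and PT cells. The log2 ratio of miR-106b-5p to miR-106b-3p was -0.71 ± 0.302 in PDGFR-β+ cells, -0.87 ± 0.513 in PT cells, -0.91 ± 0.470 in ECs and -1.14 ± 0.446 in Macs. Of its 6 pairs only Macs against PDGFR-β+ cells passed (-0.39 ± 0.509, lower in 12 of 15 mice, exact permutation, adjusted p = 0.0118). Macs against PT cells (-0.27 ± 0.499, exact permutation, adjusted p = 0.0707) passed with a pseudocount of 5 counts (-0.36, exact adjusted p = 0.0107) and without sham mouse 3 or 4 or UUO-2 mouse 2 or 4 (adjusted p of 0.0269 to 0.0439, exact permutation), and ECs against Macs (0.22) passed without UUO-2 mouse 4 (0.32, exact permutation, adjusted p = 0.0220). For miR-106b-5p to miR-25-3p, 4 of 6 pairs passed. ECs lay below PT cells (-0.68 ± 0.558), Macs (-1.01 ± 0.657) and PDGFR-β+ cells (-0.995 ± 0.4998), in 15 of 16, 16 of 16 and 15 of 15 mice. The fourth, Macs above PT cells by 0.33, was lost with a pseudocount of 5 counts (0.11, exact permutation, adjusted p = 0.334). In all, 11 of 18 ratio tests passed.

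**Figure D3:**
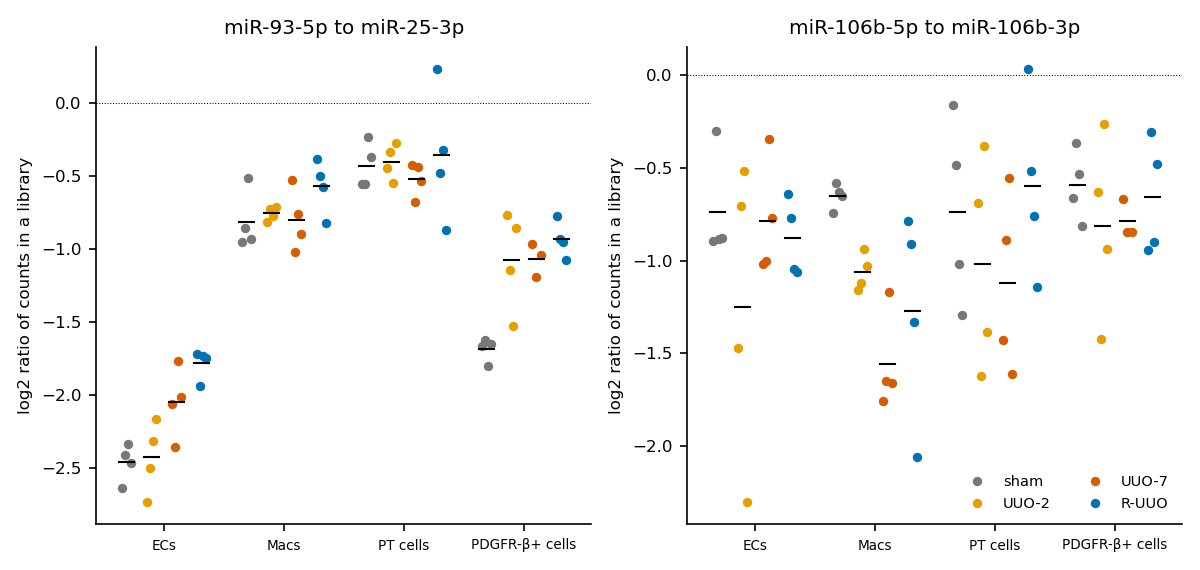
Ratios of members within a library. Points are libraries, coloured by condition and grouped by cell type, and bars are group means, on the log2 scale, for miR-93-5p to miR-25-3p and for miR-106b-5p to miR-106b-3p. The mean of the first ratio spans -2.18 in ECs to -0.43 in PT cells, that of the second -1.14 in Macs to -0.71 in PDGFR-β+ cells.

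Both remaining arms were scarce, and this limits what they show. miR-93-3p had 0 to 111 counts per library and miR-25-5p 0 to 277. miR-93-3p stood at 12.4 ± 2.24 CPM in Macs and 6.81 ± 2.94 to 7.96 ± 1.74 in the other cell types. miR-25-5p stood at 19.5 ± 8.70 CPM in Macs, 12.9 ± 3.12 in ECs and 9.41 ± 4.27 in PT cells, and was lowest in PDGFR-β+ cells (5.82 ± 2.98). Macs had the highest mean of both arms over all conditions. Both were called higher in Macs than in PT cells (62.3% of loci called) and PDGFR-β+ cells (68.7%). Against ECs 1 of the 2 was called, lower in ECs (64.7%). In sham alone, miR-25-5p averaged 10.5 CPM in Macs and 10.7 in ECs.

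In Macs miR-106b-3p rose at UUO-2, miR-106b-5p fell from UUO-2 to UUO-7, and miR-25-3p and miR-93-5p were called in neither comparison. The following levels per library are CPM scaled within a cell type, and must not be set beside the levels between cell types. Marker levels given below, miR-150-5p included, keep the scaling over all libraries. Calls of markers come from the fits within a cell type. At UUO-2, miR-106b-3p reached 352, 334, 426 and 332 CPM in the 4 libraries, against 237, 194, 188 and 215 in sham. Every UUO-2 library lay above every sham library, and the edgeR fit of all 16 Mac libraries called the rise (log2 0.79, SE 0.151, 1.73-fold, edgeR's adjusted p = 0.000594). miR-106b-5p stood at 157, 153, 222 and 163 CPM at UUO-2 and 141, 130, 121 and 137 in sham. These groups did not overlap either, but the difference of 0.39 (SE 0.256) was not called. The share of all loci whose groups do not overlap was not counted in any cell type. Separation of groups, here and below, thus only describes the miRNAs named. miR-93-5p (0.20, SE 0.151) and miR-25-3p (0.13, SE 0.144) were not called, and their UUO-2 and sham libraries overlapped. For miR-93-5p, 3 UUO-2 libraries lay above every sham library. Thus 1 of 4 members was called at UUO-2, where 27.6% of loci were.

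The median of all loci was 0.15 at UUO-2 against sham, and miR-106b-3p exceeded it by 0.64 (0.54 to 0.70 under every alternative). Leaving out Mac UUO-2 replicate 3, sham replicate 2 or sham replicate 3 took the estimate to 0.54, 0.57 and 0.56, under the fold threshold with an adjusted p of at most 0.0236 by edgeR. miR-25-5p, opposite arm of miR-25-3p, also rose, from 10.5, 27.2, 14.3 and 13.5 CPM in sham to 61.5, 50.3, 35.0 and 62.7 at UUO-2 (log2 1.71, SE 0.302, edgeR's adjusted p = 0.000286), and was also higher than sham at UUO-7 (1.19, SE 0.304, edgeR's adjusted p = 0.00347). Its partner miR-25-3p had values of 5021, 3986, 3468 and 4633 CPM in sham and 4720, 4420, 5372 and 4224 at UUO-2, which overlap.

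At UUO-7 miR-106b-5p in Macs was 66.9, 96.5, 113 and 101 CPM. All 4 values lay below every sham and every UUO-2 value. The fall from UUO-2 was called (log2 -0.88, SE 0.259, 1.84-fold, edgeR's adjusted p = 0.0141), where 30.6% of loci were called, whereas the difference of -0.49 from sham was not (SE 0.259, edgeR's adjusted p = 0.124). Without Mac UUO-2 replicate 3 the fall from UUO-2 was -0.75 with an adjusted p of 0.0523 by edgeR. miR-106b-3p was 226, 303, 254 and 320 CPM, below each UUO-2 value (-0.39, SE 0.150, edgeR's adjusted p = 0.0549) and 0.40 above sham with an adjusted p of 0.0344 by edgeR, under the fold threshold. No member was called at UUO-7 against sham, where 43.1% of loci were, and miR-93-5p (0.17, SE 0.151) and miR-25-3p (0.16, SE 0.144) lay close to the median of all loci (0.22).

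After reversal, miR-25-3p and miR-106b-3p fell in Macs. miR-25-3p was 2976, 3179, 2561 and 2230 CPM in R-UUO, against 3870, 5115, 4838 and 5232 at UUO-7. The R-UUO libraries lay below all UUO-7 and all sham libraries, and the fall was 1.74-fold from UUO-7 (log2 -0.80, SE 0.145, edgeR's adjusted p = 0.000962) and 1.56-fold from sham (-0.64, SE 0.145, edgeR's adjusted p = 0.00181). miR-106b-3p fell from UUO-7 to 188, 191, 150 and 152 CPM (-0.70, SE 0.152, 1.62-fold, edgeR's adjusted p = 0.00307). miR-106b-5p, at 109, 101, 59.4 and 36.1 CPM, was 1.70-fold below sham (-0.77, SE 0.260, edgeR's adjusted p = 0.0260) and did not differ from UUO-7 past the threshold (-0.28, SE 0.261). miR-93-5p was 2281, 2254, 1723 and 1261 CPM, below every UUO-7 library (-0.53, SE 0.152, edgeR's adjusted p = 0.0158, under the fold threshold). Thus 2 members were called against UUO-7 and 2 against sham, all lower, where 19.9% and 31.9% of loci were called in either direction.

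The falls of miR-25-3p and of miR-106b-3p against UUO-7 were called under every alternative. The miR-106b-5p fall against sham was not called with only the compared groups in the fit (-0.79, edgeR's adjusted p = 0.0847). R-UUO replicates 4 and 5 had the lowest 2 R-UUO values of each member, and replicate 5 was also the shallowest Mac library (1106651 counts). Marker levels in the Mac gate also differed between groups. The leukocyte miRNAs summed to 34889 to 41963 CPM in sham, 24043 to 29708 after UUO-2, 17974 to 21208 after UUO-7 and 14702 to 27644 in R-UUO. Scaled within Macs, 1 of these 3 was called higher and none lower at UUO-2 against sham (median log2 change 0.13). Against sham, 2 of 3 were called lower at UUO-7 and 2 of 3 in R-UUO. The lymphocyte miRNA miR-150-5p went from 92.4 to 164 CPM in sham to 454 to 744 at UUO-7 and 146 to 615 in R-UUO, and the 5 stromal markers, all called higher in R-UUO than in sham, from 1994 to 4985 to 6780 to 9589 CPM. Of 2 erythroid loci tested in Macs, 1 was called higher than sham at UUO-2 and 1 at UUO-7, and none was called lower. The part of these cell type markers in the member changes was not tested.

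In PT cells miR-25-3p and miR-93-5p rose between UUO-2 and UUO-7, and no member was called against sham. miR-25-3p was 744, 728, 989 and 730 CPM at UUO-2 and 1163, 1269, 1583 and 1346 at UUO-7, against 1035, 887, 850 and 891 in sham. miR-93-5p was 546, 578, 676 and 604 CPM at UUO-2 and 867, 795, 1167 and 929 at UUO-7, against 704, 603, 726 and 691 in sham. For both, all UUO-7 libraries exceeded all UUO-2 and all sham libraries. How common such separation is among all loci was not counted. Between UUO-2 and UUO-7 miR-25-3p rose 1.68-fold (log2 0.75, SE 0.151, edgeR's adjusted p = 0.00921) and miR-93-5p 1.56-fold (0.64, SE 0.171, edgeR's adjusted p = 0.0359). These were 2 of only 14 calls among 330 loci, or 4.24%.

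The rise of miR-25-3p had an adjusted p of 0.0531 by edgeR without PT UUO-2 replicate 4 (0.67), and that of miR-93-5p was lost when any 1 of 7 of the 8 libraries compared, all but UUO-7 replicate 3, was left out (0.52 to 0.68, edgeR's adjusted p up to 0.207). Neither was called under scaling by library size alone. miR-106b-3p had 54.5, 50.9, 58.9 and 51.6 CPM at UUO-7 against 30.6, 34.5, 33.9 and 39.8 at UUO-2 and 41.0, 30.7, 37.0 and 39.2 in sham, again with no overlap (0.64 over UUO-2, SE 0.200, edgeR's adjusted p = 0.0737). Against sham no member passed both thresholds at UUO-7, where 43% of loci were called. miR-25-3p (0.55, SE 0.151, edgeR's adjusted p = 0.00793), miR-106b-3p (0.54, SE 0.201, edgeR's adjusted p = 0.0357) and miR-93-5p (0.46, SE 0.171, edgeR's adjusted p = 0.0348) passed on the adjusted p alone. The estimates for those 3 followed the scaling, since library size alone moved the median of all loci from near 0 to -0.36, and relative to the median miR-25-3p was 0.55 (0.46 to 0.65 under every alternative).

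At UUO-2 no member was called against sham in PT cells, where 19.1% of loci were called, with estimates from -0.36 (miR-106b-5p) to -0.09 (miR-106b-3p). After reversal miR-25-3p was 891, 1084, 798 and 1127 CPM and miR-106b-3p 30.0, 31.6, 31.0 and 45.4 CPM, each below all UUO-7 libraries. The differences from UUO-7 of -0.46 (SE 0.151, edgeR's adjusted p = 0.0968) and -0.65 (SE 0.201, edgeR's adjusted p = 0.0851) were not called, in a comparison where 1.52% of loci were. No member was called in R-UUO against sham, where 38.8% of loci were. miR-106b-5p, with 11 to 159 counts per PT library, was called in no comparison of conditions. In the PT gate at UUO-7, 3 of 3 PT markers were called lower than sham (32309 to 53395 CPM against 99842 to 130294), 1 of 2 tested leukocyte markers higher (136 to 236 against 73.1 to 106 CPM) and 2 of 4 tested stromal markers higher (7030 to 18214 against 1617 to 3496 CPM). The part of these in the member levels was not tested.

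In ECs miR-93-5p was the one member that changed. It was 202, 201, 224 and 202 CPM in sham and 213, 197, 218 and 194 at UUO-2, and then 284, 260, 347 and 320 at UUO-7 and 378, 297, 268 and 304 in R-UUO. The later libraries lay above all sham and all UUO-2 libraries. The R-UUO level was 1.50-fold above sham and called (log2 0.59, SE 0.125, edgeR's adjusted p = 0.00323), where 16.8% of loci were called. At UUO-7 the same member exceeded sham by 0.55 (SE 0.125, edgeR's adjusted p = 0.00881) and UUO-2 by 0.56 (SE 0.126, edgeR's adjusted p = 0.0187), just under the fold threshold, so no member was called in these comparisons, where 11.5% and 1.92% of loci were.

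The fold of miR-93-5p in ECs lies at the threshold, and its call moved accordingly. The R-UUO call was lost without EC R-UUO replicate 1 (0.58), under DESeq2 (0.57) and under library size alone (0.28), and the UUO-7 difference from sham was called without any 1 of 7 of the 8 libraries (0.59 to 0.68), all but UUO-7 replicate 5. Relative to the median of all loci, miR-93-5p stood 0.55 higher in R-UUO than in sham (0.45 to 0.69) and 0.60 higher at UUO-7 (0.52 to 0.70). miR-25-3p did not follow, with 1258, 1070, 1130 and 1116 CPM in sham and 1249, 1138, 889 and 1021 in R-UUO (-0.09, SE 0.136). No member was called at UUO-2 against sham (1.71% of loci called) or in R-UUO against UUO-7 (1.07%). Leukocyte miRNAs were low in ECs but rose from 20.1 to 60.2 CPM in sham to 110 to 193 at UUO-7 and 89.3 to 132 in R-UUO, with 3 of 3 and 2 of 3 called. Their part in the miR-93-5p level was not tested.

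No member was called in PDGFR-β+ cells. The shares of loci called were 6.29% at UUO-2 against sham, 48.2% at UUO-7 against sham, 33.8% at UUO-7 against UUO-2, 3.98% in R-UUO against UUO-7 and 41.7% in R-UUO against sham. The median of all loci was displaced by 0.50 at UUO-7 and by 0.40 in R-UUO against sham, and by 1.02 at UUO-7 under library size alone, so the members are best read against it. miR-25-3p was 733, 778 and 708 CPM at UUO-7, below its sham values of 864, 991, 844 and 950 (-0.30, SE 0.223), which is -0.80 relative to the median (-0.86 to -0.41 under every alternative). miR-93-5p was 375, 341 and 344 CPM at UUO-7, above its sham values of 273, 321, 242 and 303 (0.31, SE 0.169), and 288, 447, 344 and 467 in R-UUO (0.44, SE 0.157, edgeR's adjusted p = 0.0327, under the fold threshold). Relative to the median these were -0.18 and 0.04. miR-106b-3p at UUO-7 (38.8, 42.1 and 42.5 CPM) lay above each UUO-2 library (26.2, 27.9, 33.3 and 21.5 CPM). That difference was 0.59 (SE 0.230, edgeR's adjusted p = 0.0563). In this gate at UUO-7, 3 of 3 leukocyte markers were called higher than sham (273 to 698 against 53.0 to 171 CPM). Called lower were 2 of 2 EC markers (618 to 1586 against 2041 to 2587 CPM) and 2 of 3 PT markers. Of 7 stromal loci tested, 5 were called higher and 2 lower. The part of these markers in the member levels was not tested.

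Across the 4 cell types there were 14 comparisons of conditions in which edgeR called no member. In 7 of them at least 1 member had an unadjusted p under 0.05, and DESeq2 called 1 member in each of 2, miR-93-5p in ECs at UUO-7 against UUO-2 and miR-106b-3p in PT cells in R-UUO against UUO-7.

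**Figure D4:**
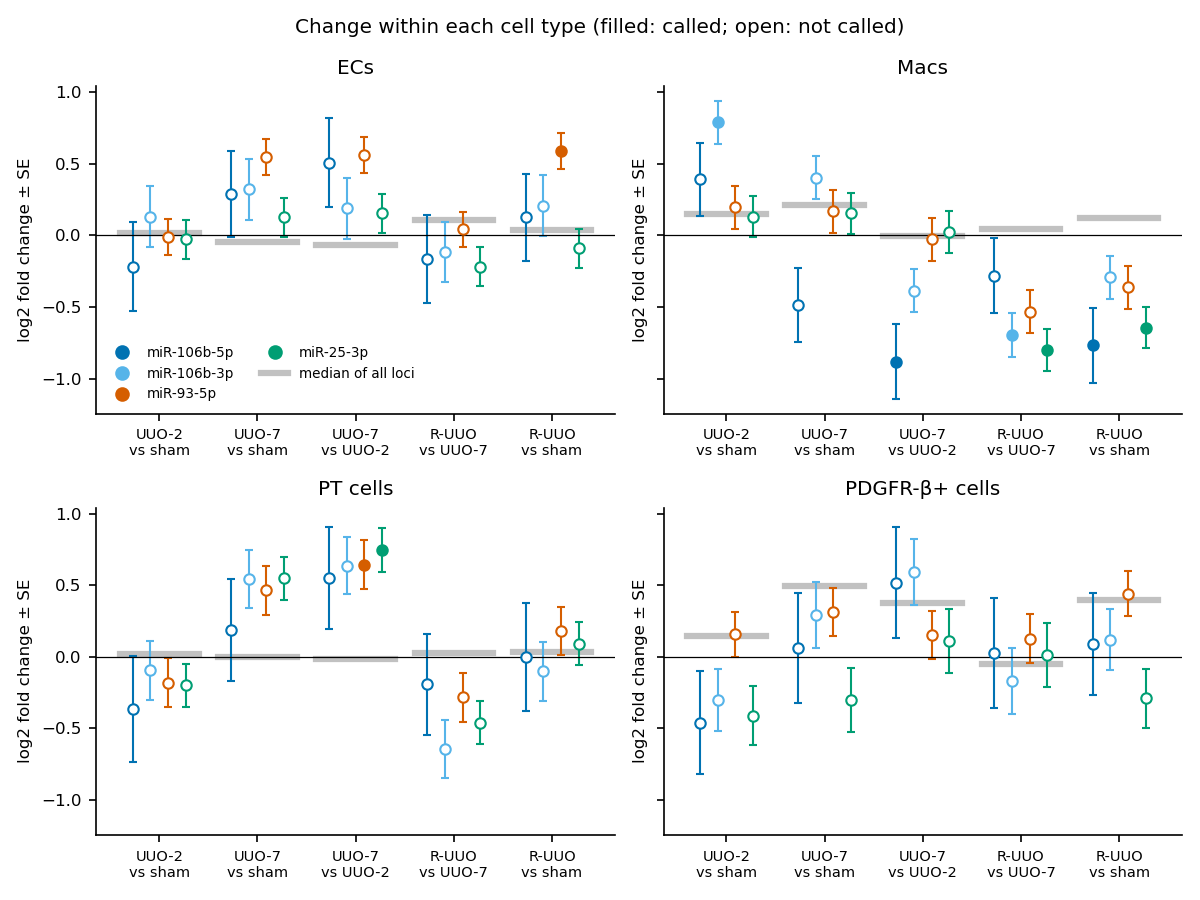
Log2 fold change ± SE of each member in 5 comparisons within each cell type. Filled symbols were called, open symbols were not, and the grey bar is the median of all loci tested. In Macs the filled points are a rise at UUO-2 (miR-106b-3p, 0.79) and falls thereafter, in PT cells the filled points are rises from UUO-2 to UUO-7, and in ECs only miR-93-5p is filled.

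Whether a change differed between cell types was tested as the change in one cell type minus the mean change of the other 3, in the fit over all libraries. At UUO-2 the change of miR-106b-3p was larger in Macs than in the rest by 0.74 (SE 0.224, edgeR's adjusted p = 0.0198), 1 of 4 members where 8.79% of loci were called. It had an adjusted p of 0.0621 by edgeR without UUO-2 mouse 3 (0.69). No member was called at UUO-2 for ECs (0.149% of loci), PT cells (11.6%) or PDGFR-β+ cells (6.41%). At UUO-7 the change of miR-25-3p was larger in PT cells than in the rest by 0.72 (SE 0.205, edgeR's adjusted p = 0.00549), 1 of 4 members where 23.8% of loci were called. That call depended on the scaling. The estimate was 0.03 with library size alone and 0.31 with DESeq2's size factors, neither called. The median of all loci was 0.04 in the fit reported and -0.56 and -0.31 under these scalings, and relative to the median it was 0.68 (0.59 to 0.87 under every alternative). No member was called at UUO-7 for ECs (11.8% of loci), Macs (20.1%) or PDGFR-β+ cells (22.8%). Of these 6 comparisons with no member called, 3 had a member at an unadjusted p under 0.05 in edgeR, and DESeq2 called none.

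The ratios of members at UUO-7 and in sham were compared by an exact two-sided permutation test in each cell type, 12 tests in all. None passed after adjustment, and 2 had an unadjusted p of 0.0286, the smallest that 4 against 4 mice allow. Both were in Macs. There the log2 ratio of miR-106b-5p to miR-106b-3p was -0.65 ± 0.0680 in sham and -1.56 ± 0.263 at UUO-7 (exact permutation p = 0.0286, adjusted p = 0.171), with -1.06 ± 0.0991 at UUO-2 and -1.27 ± 0.575 in R-UUO. The ratio of miR-106b-5p to miR-25-3p was -5.00 ± 0.141 in sham and -5.67 ± 0.180 at UUO-7 (exact permutation p = 0.0286, adjusted p = 0.171). Each pair of groups did not overlap, with fewer miR-106b-5p reads per read of either other arm in the UUO-7 Mac libraries. This is the same fact as the smallest p, and neither difference passed adjustment.

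For miR-93-5p to miR-25-3p, the largest differences between UUO-7 and sham means were in PDGFR-β+ cells and ECs. In PDGFR-β+ cells the sham ratio was -1.69 ± 0.0807, against -1.07 ± 0.344 at UUO-2, -1.07 ± 0.115 at UUO-7 and -0.93 ± 0.124 after reversal, and the UUO-7 and sham libraries did not overlap (exact permutation p = 0.0571, the smallest that 3 against 4 allow). In sham ECs it was -2.46 ± 0.128, against -2.43 ± 0.247 at UUO-2, -2.05 ± 0.243 at UUO-7 and -1.78 ± 0.102 after reversal (UUO-7 against sham, exact permutation p = 0.0571, adjusted p = 0.171). In Macs (-0.81 ± 0.204 in sham, -0.80 ± 0.211 at UUO-7) and PT cells (-0.43 ± 0.159 and -0.52 ± 0.115) the means differed by less than 1 SD. The R-UUO and UUO-2 ratios are descriptions and were not tested.

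miRNAs that share a seed can act on the same sites, so the members were set against their seed families. miR-93-5p supplied most reads of the miR-17 seed family in all 4 populations, with 83.4% ± 3.93 in Macs, 82.7% ± 1.70 in PDGFR-β+ cells, 82.3% ± 3.02 in PT cells and 80.8% ± 2.73 in ECs (SD over libraries). miR-106b-5p added 3.94% ± 0.968, 5.38% ± 1.72, 2.47% ± 0.728 and 5.20% ± 1.33 in the same order. A seventh name with this seed, miR-6383, was outside the family list and had no count in any library. miR-17-5p held 8.12% to 9.04% and miR-20a-5p 3.71% to 5.54% on average, and miR-20b-5p and miR-106a-5p each averaged under 1% in every cell type. The miR-106b~25 cluster thus outnumbered its paralog for this seed.

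For the other seed the balance was reversed. miR-25-3p supplied 16.6% ± 2.52 of the miR-25/92 family's reads in PDGFR-β+ cells, 13.5% ± 2.58 in ECs, 10.1% ± 2.02 in PT cells and 9.67% ± 1.94 in Macs. miR-92a-3p, summed over 2 loci, supplied 72.2%, 85.1%, 83.7% and 89.9%, and miR-92b-3p 11.1%, 1.31%, 6.00% and 0.278% in the same order. miR-367-3p had no count in any library. Which of the 2 identical miR-92a-3p loci a read was assigned to is set by the authors' placement of multi-mapping reads, which the sources used here do not state.

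**Figure D5:**
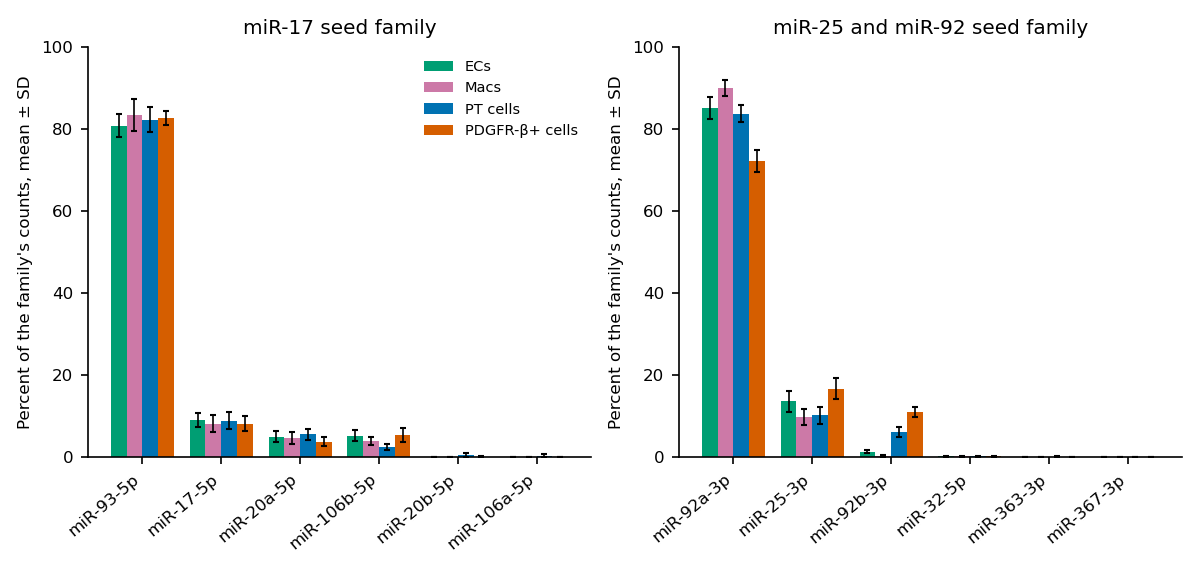
Share of each member in the counts of its seed family, in percent of the family's counts per library, mean ± SD by cell type. miR-93-5p makes up 80.8% to 83.4% of the miR-17 seed family, and miR-92a-3p 72.2% to 89.9% of the miR-25/92 family.

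The cluster's share of miR-17 seed reads varied with obstruction. In sham Macs it was 88.2% ± 1.17, followed by 82.4% ± 2.29 at UUO-2, 90.7% ± 0.543 at UUO-7 and 87.8% ± 1.55 after reversal. In PT cells it was 88.4% ± 1.62, 80.5% ± 2.06, 85.8% ± 1.26 and 84.3% ± 1.36 in the same order, and in ECs 87.2% ± 0.843, 82.6% ± 2.84, 87.4% ± 2.49 and 86.8% ± 2.41. The lowest mean share was at UUO-2 in all 3. In PDGFR-β+ cells it ranged from 87.0% ± 2.10 to 90.0% ± 1.83. These shares were not tested.

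The paralogous miR-17~92 cluster, a transcript also known for raised levels in dividing cells, has 6 of the listed miRNAs on chromosome 14. At UUO-2 in Macs 4 of these 6 loci were called higher than sham and none lower (median 0.81, against 0.15 for all loci, of which 27.6% were called). They were miR-17-5p (0.90, SE 0.159, edgeR's adjusted p = 0.000298), miR-18a-5p (1.15), miR-19a-3p (0.78) and miR-20a-5p (0.85). From UUO-2 to UUO-7 in Macs 5 of 6 were called lower (median -1.27, against a median near 0 for all loci, of which 30.6% were called), with miR-17-5p at -1.03 and miR-20a-5p at -1.31. Of the miR-106b~25 members, miR-106b-3p was called higher in the first comparison and miR-106b-5p lower in the second, while miR-93-5p and miR-25-3p were called in neither. Both comparisons share the UUO-2 libraries. All 6 loci were lower in ECs than in Macs (64.7% of all loci called), and all 6 higher in Macs than in PT cells (62.3%) and than in PDGFR-β+ cells (68.7%).

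In PT cells at UUO-7 against sham, where 43% of loci were called, 3 of the 5 chromosome 14 loci tested were called higher, miR-17-5p (0.97), miR-20a-5p (0.84) and miR-92a-3p (1.04). The identical miR-92a-3p on chromosome X was called lower (-1.26), so the pair can be read only together. In ECs in R-UUO against sham 3 of 6 were called higher (16.8% of all loci called), miR-17-5p (0.61), miR-19a-3p (1.39) and miR-19b-3p (1.44). In Macs in R-UUO against sham 1 of 6 was called, miR-92a-3p (-0.96, and -0.95 at its chromosome X copy; 31.9% of all loci called), beside the fall of its seed partner miR-25-3p (-0.64). The rest of that seed family moved both ways in this comparison, with miR-32-5p lower (-1.11, SE 0.241) and miR-92b-3p higher (1.88, SE 0.287). In PDGFR-β+ cells in R-UUO against sham 4 of 6 were called higher (median 0.79, against 0.40 for all loci, of which 41.7% were called). The third paralog, the miR-106a to miR-363 cluster on chromosome X, also holds a copy of miR-19b-3p and of miR-92a-3p. These copies were assigned 4195 and 176342 counts over all libraries, against 64256 and 3187559 at the identical sequences on chromosome 14. Of its other members, miR-106a-5p stood at 2.29 ± 1.84 CPM and miR-363-3p at 6.35 ± 3.34 CPM in PT cells, and each averaged 1.31 CPM or less elsewhere. Both were scaled over all libraries.

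Across the 16 groups of cell type and condition, the members resembled each other to different degrees. Pearson's r of mean log2 CPM was 0.95 between the arms of miR-106b and 0.55 between miR-93-5p and miR-25-3p, and 0.79 to 0.83 for the other 4 pairs. These correlations describe group means from shared libraries and carry no test. Outside the fixed lists, the loci most like miR-106b-5p were miR-17-3p (r = 0.96), miR-652-3p (0.93) and miR-130b-5p (0.93), and those most like miR-106b-3p were miR-17-3p (0.97), miR-130b-3p (0.96) and miR-130b-5p (0.96). Those most like miR-93-5p were miR-425-5p (0.96), miR-501-3p (0.94) and miR-1839-5p (0.93). miR-25-3p was nearest to miR-7213-5p (0.91), miR-146a-5p (0.91) and miR-7a-1-3p (0.88). Neither miR-93-5p nor miR-25-3p shared any of its 3 nearest loci with another member.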

How the data were processed

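Small RNA of sorted kidney cells was sequenced on an Illumina HiSeq. Per the labels and the study's methods, the authors trimmed reads with Trim Galore 0.4.1 and cutadapt 1.1, placed them on GRCm38 and miRBase 22 with ShortStack (a Bowtie wrapper) and deposited raw counts per mature miRNA locus. How reads that fit several loci were placed, and the strand counted, are not given in the sources used here. A locus total over all libraries in the table was not used.

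Counts were tested with edgeR 4.0.16 in R 4.3.3 (TMM factors, filterByExpr, quasi-likelihood test, Benjamini-Hochberg over the loci tested: 469 in ECs, 457 in Macs, 330 in PT cells, 477 in PDGFR-β+ cells, 671 over all cell types). DESeq2 1.42.0 was an alternative. A call needed an adjusted p under 0.05 and a fold change over 1.5. Log2 ratios of members used a pseudocount of 0.5 counts (alternative 5) and exact permutation tests in Python 3.11.15 with numpy 2.4.6, scipy 1.17.1 and pandas 2.3.3. Figures used matplotlib 3.10.9. The tests were checked on simulated counts. Library totals of 616565 to 10819385 counts set the precision, and reads without molecular identifiers are not independent molecules.

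Named miRNAs were the 4 members, the other arms of their hairpins, the miR-17 and miR-25/92 seed families, the miR-17 to miR-92a and miR-106a to miR-363 clusters, and per member the 3 loci outside these lists with the highest Pearson r over 16 groups. Members and lists were chosen with earlier results of these data known. Marker lists covered ECs, Macs, PT cells, PDGFR-β+ cells, erythroid cells, lymphocytes and other epithelium.

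A number in the labels marks 1 mouse within a condition, so cell types are paired by mouse. Deviations from group means of same-mouse libraries had a median r of 0.0485 (31 of 93 pairs over 0.1), against -0.0166 for different mice. Mice of different conditions share only a number (median r -0.0222). The 93 pairs of replicates all differed by more than sampling noise (chi-square per degree of freedom 5.40 to 1269). RefSeq gave a mature sequence for 1675 of 1966 miRNA names and placed 6 of 6 arms at the counted positions. Alternatives were other scalings, no filter, DESeq2, only the compared groups, blocks by number or mouse, sham libraries only, and leaving out each library or mouse.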

Additional observations from a re-analysis of the deposited data

Results flagged for a closer look

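Of 60 groups of 4 libraries, 6 held a library far from the rest by Dixon's criterion, and chance gives such a gap in about 1 in 20 groups. In Macs at UUO-2, miR-106b-5p was 222 CPM (scaled within the cell type) in replicate 3 and 153 to 163 in the other libraries. For miR-106b-3p, replicate 1 of ECs at UUO-2 had 36.9 CPM against 25.9 to 27.4, replicate 4 of ECs in R-UUO had 18.1 against 34.1 to 35.3, and replicate 5 of PT cells in R-UUO had 45.4 against 30.0 to 31.6. miR-93-5p in sham ECs was 224 CPM in replicate 3 and 201 to 202 in the other libraries. miR-25-3p in PT cells at UUO-2 was 989 CPM in replicate 3 and 728 to 744 in the other libraries.

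A difference between cell types in the change with obstruction was called for 2 members. The change of miR-106b-3p at UUO-2 was larger in Macs than in the other cell types by 0.74 on the log2 scale, and that of miR-25-3p at UUO-7 was larger in PT cells by 0.72. The second was not called under library size alone or DESeq2's size factors.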

How the results depend on the processing

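Of 513 counts of called members under an alternative, 459 lay within 1.5 times the reported count. Of 682 log2 differences of single members, 614 kept their direction and side of the threshold, 32 passed it, 33 no longer did and 3 reversed. Of 429 ratio values, 421 were counted as unchanged, 7 newly passed and 1 no longer did. The 429 include counts of ratios passed, judged like the counts of members. They also include UUO-7 differences from sham with a mouse left out, counted as unchanged if they shifted by less than the larger group SD. Leaving 1 mouse out of such a group always shifts its mean by less, so these values could not count as changed. All other ratios were judged by their side of the adjusted p threshold. The cause of these shifts was not tested.

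With library size alone, the count of called members became 0 for ECs R-UUO against sham (1 in the report), 0 for PT UUO-7 against UUO-2 (2), 2 for PDGFR-β+ UUO-7 against sham (0), 4 for PDGFR-β+ UUO-7 against UUO-2 (0), 1 for PDGFR-β+ R-UUO against sham (0), 1 for ECs against PT cells (2), 0 for ECs against PDGFR-β+ cells (1) and 0 for PT minus others at UUO-7 (1). miR-25-3p in ECs against Macs then passed the fold threshold (-1.80, reported -0.49). The reversals were also under library size alone, miR-106b-3p in ECs against PT cells (-0.41, reported 0.38), miR-106b-5p in PT against PDGFR-β+ cells (0.014, reported -0.50) and miR-106b-3p in the same pair (0.19, reported -0.35). With DESeq2's size factors and with DESeq2 itself the count became 1 for ECs UUO-7 against UUO-2 (0), 0 for ECs R-UUO against sham (1) and 0 for PT minus others at UUO-7 (1), and DESeq2 gave 1 for PT R-UUO against UUO-7 (0). With no filter it became 1 for ECs UUO-7 against sham (0), 1 for ECs UUO-7 against UUO-2 (0), 1 for PT UUO-7 against sham (0), 1 for PT UUO-7 against UUO-2 (2) and 0 for Macs minus others at UUO-2 (1). With only the compared groups it became 1 for Macs UUO-7 against sham (0) and 1 for Macs R-UUO against sham (2).

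A replicate block by number across conditions, which the data do not show to pair mice (15 of 74 same-number pairs had r over 0.1), gave 0 for ECs R-UUO against sham (1), 0 for Macs UUO-7 against UUO-2 (1) and 1 for Macs R-UUO against sham (2). The block by mouse changed no count between cell types.

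Leaving out 1 library gave 0 to 1 called members for ECs UUO-7 against sham, ECs UUO-7 against UUO-2, ECs R-UUO against sham, Macs UUO-2 against sham, Macs UUO-7 against UUO-2, PT UUO-7 against sham, PT R-UUO against UUO-7, PDGFR-β+ UUO-2 against sham, PDGFR-β+ UUO-7 against UUO-2 and Macs minus others at UUO-2, 0 to 2 for PT UUO-7 against UUO-2, 2 to 3 for Macs R-UUO against UUO-7 and against sham, 3 to 4 for ECs against Macs and 1 to 2 for PT against PDGFR-β+ cells. Ratios at UUO-7 against sham were rerun with a mouse left out, and none moved by as much as the larger group SD. In groups of 3 or 4 mice, leaving 1 out cannot shift the mean by that much. This rerun therefore could not show a change and says nothing about stability. Only the size of the difference was read, since 3 against 4 mice cannot reach an exact permutation p below 0.0571. Depth limits miR-106b-5p most, with as few as 11 counts in a PT library.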
